A study of Mus musculus with 4 samples.

Results

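The mRNAs of the cytosolic ribosomal proteins were followed in adult mouse cardiomyocytes with and without induction of reprogramming factors. A gene was counted as a member if its symbol began with Rpl or Rps and a digit, or with Rplp, the Rps6k kinases being left out, and if its probe cleared the scanner's background criterion on 2 or more of the 4 arrays. Of 20886 genes named on the array, 90 matched by symbol and 88 also passed the signal criterion, out of 12542 genes that passed it in all. The 88 comprise 45 proteins of the large subunit, 30 proteins of the small subunit, 5 paralogues of such proteins (Rpl3l, Rpl22l1, Rpl7l1, Rpl36al and Rps27l) and 8 copies or related genes that the symbol takes in (Rps4l, Rps19bp1, Rpl37rt, Rpl32l, Rps23rg1, Rps15a-ps6, Rpl31-ps12 and Rpl34-ps1). All 88 were well above background on all 4 arrays. The other two, the retrogenes Rpl10l and Rpl39l, which are known from mouse testis, were not well above background on any array.

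All 4 arrays came from male mice aged 10 weeks, bred from a line with Cre under the αMHC promoter, which is active in heart muscle, and a line with the OSKM factors (Pou5f1, Sox2, Klf4 and Myc) behind a tetO element. The 2 control arrays are from animals given PBS for 2 days and the 2 doxycycline arrays from animals injected intraperitoneally with doxycycline for 2 days. The labels give the controls the same cross, so both groups carry the transgenes, and no array holds doxycycline without the factors, so the drug and the factors cannot be told apart. Total RNA of isolated cardiomyocytes was labelled with Cy3 and hybridised to 1-colour Agilent arrays. Nothing in the labels says whether arrays of a group come from separate animals, so the p-values measure only the spread between these samples.

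A ribosome is built from ribosomal RNA and a fixed set of proteins that are needed in equal supply. The mRNAs of these proteins are made in step with each other. Most begin with a run of pyrimidines, the 5′ terminal oligopyrimidine or TOP motif, through which mTORC1 controls their translation. Some proteins have a paralogue that can take their place in particular tissues, and striated muscle is known for one of these, Rpl3l, which replaces Rpl3. Myc is known in other cells as an activator of ribosome production.

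Levels are log2 processed signals minus the 75th percentile of the same array, so they are relative to the other genes on the array. A change in the amount of RNA per cell would not show. In bulk samples of this kind, fewer cells of a type and less RNA per cell cannot be told apart. The 75th percentile of the signal was 112 and 171 for PBS arrays 1 and 2, against 248 and 193 for doxycycline arrays 1 and 2. Control array 1 stood apart: its repeated spots varied by 10.99% against 4.02% to 4.81% on the others. The defining markers of cardiomyocytes, 15 of 15 measured, had a summed level of 12.55 and 12.95 with PBS against 12.33 and 12.56 with doxycycline. Their sum is led by Myh6; control array 2 exceeded control array 1 for 13 of 15, with a median gap of 0.89, and their median difference between the groups was 0.01, or -0.43 without control array 1. Markers of other cells were measured too, and they varied both on control array 1 and with the groups. Fibroblast markers, 12 of 12 measured, summed to 8.73 on control array 1 and to between 7.28 and 7.45 on the others. Both doxycycline arrays lay below both controls for 8 of these 12 (20.8% of all genes did so), with a median difference of -1.99, or -1.28 without control array 1. Lum, at -3.76, and Col3a1, at -3.59, were among them. Endothelial markers, 12 of 12 measured, summed to 9.38 on control array 1 and to between 7.72 and 8.16 on the others, with a median difference of -0.18, or 0.49 without control array 1. Macrophage markers, 9 of 12 measured, summed to 4.60 on control array 1 and to between 3.01 and 3.25 on the others, with 6 of 9 apart below. Red cell markers, 5 of 10 measured, summed to 8.36 on control array 1 and to between 5.52 and 6.08 on the others, with 5 of 5 apart below, and lymphocyte markers were measured for 2 of 9. Neutrophil markers, 5 of 8 measured, summed to 6.24 and 5.33 with PBS against 5.71 and 5.82 with doxycycline, a sum led by Csf3r. The neutrophil genes S100a8, S100a9 and Retnlg were apart above (as were 14.5% of all genes), by 3.67, 3.26 and 2.33, and by 4.39, 3.81 and 2.82 without control array 1. Csf3r and Elane, the other neutrophil markers measured, differed by -0.33 and -0.39 with overlapping groups, or by 0.12 and 0.14 without control array 1. Smooth muscle and pericyte markers, 9 of 9 measured, summed to 6.25 and 6.04 with PBS against 5.02 and 4.64 with doxycycline. Acta2, which led this sum with PBS, differed by -2.47. The median difference of the 9 was -0.51, or 0.06 without control array 1, with 4 apart below (20.8% of all genes were). Cnn1 and Myh11 went the other way, by 1.17 and 0.34, with overlapping groups. None of these markers passed in limma after Benjamini-Hochberg adjustment, and their part in the differences of the ribosomal proteins was not tested. The main comparisons are also given without control array 1. Of the factors, Myc read -2.34 and -3.21 with PBS against 1.77 and -0.49 with doxycycline, and Klf4 read 3.98 and 2.95 against 3.19 and 3.17. Pou5f1 was well above background on 1 array and Sox2 on 0. The Myc values of the groups do not overlap, those of Klf4 do, and the files do not say whether these probes read the introduced copies.

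No ribosomal protein mRNA passed the test of a difference between doxycycline and control. With limma and Benjamini-Hochberg adjustment over all 12542 genes, 0 of 88 members passed at 0.05, and the share of all genes that passed was also 0%. The smallest adjusted p of a member was 0.878, for Rps4l, and the smallest over all genes was 0.141. At an unadjusted p under 0.05, 0 members were higher or lower, while 3.17% of all genes were higher and 3.89% lower. Without control array 1, again 0 members passed, with a smallest adjusted p of 0.671, for Rps19bp1. An exact permutation test of 2 arrays against 2 cannot give a two-sided p below 0.333. The median standard error of a member's difference was 0.40, and its unadjusted 95% interval reached 0.96 to either side. For a typical member a difference smaller than that could not be told from 0 in this fit. These standard errors are limma's, which draws the variance of each gene toward that of all genes. The lowest standard error of a member was 0.39, while the members' own median spread within groups (SD) was 0.17. That interval is not the adjusted test, in which no gene passed whatever the size of its difference.

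The differences of the 88 mRNAs lay close to each other and close to 0. Their median difference, doxycycline minus control, was -0.04 on the log2 scale, with quartiles of -0.13 and 0.07 and a range from -0.68 to 0.57. Over all genes tested the median was -0.06, with quartiles of -0.42 and 0.28 and a range from -4.84 to 5.33. A difference under 0.2 in size was seen in 68 members (77.3%) and in 30.7% of all genes. A difference of at least 0.5 was seen in 3 members, Rps12, Rpl7l1 and Rps4l, which is 3.41% of them against 36.2% of all genes. None of the 88 reached 1, while 12.4% of all genes did. The large subunit proteins had a median difference of -0.04 (range -0.27 to 0.29) and the small subunit proteins one of -0.01 (range -0.25 to 0.57). The spots of the 88 genes were mostly bright, with a median processed signal between 7535 and 20292 on the 4 arrays and 0 saturated spots. Rpl7l1, however, was the dimmest member on every array, with a signal of 20 on control array 1. Its levels lay below the median level of all genes, 0.12. Rps4l, at 0.20 to 1.37, lay far below the median member, at 6.24. The median spread within groups (SD) was 0.17 for the members and 0.43 for all genes. The part of brightness in this narrow range was not tested.

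**Figure D1:**
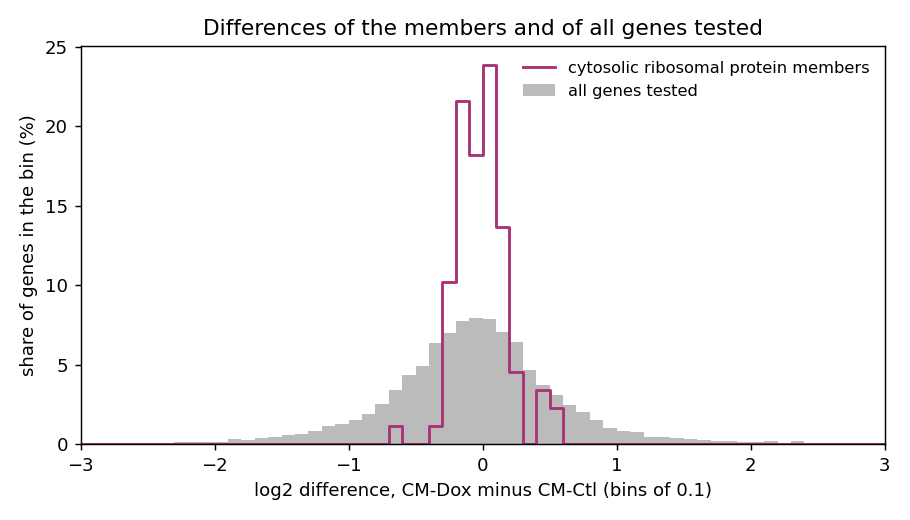
Distribution of the log2 difference, doxycycline minus control (x axis), as a share of genes (y axis), for the 88 ribosomal protein genes and for all 12542 genes tested. The members are centred near -0.04 and fill a much narrower range than all genes.

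Whether the groups overlapped was read for each member as well. Both doxycycline arrays lay above both control arrays for 7 members (7.95%), against 14.5% of all genes. Rpl7l1, Rpl22l1, Rpl5, Rps6, Rpl13a, Rplp0 and Rpl28 made up these 7. Both doxycycline arrays lay below both control arrays for 10 members (11.4%), against 20.8% of all genes. These were Rpl7a, Rps15a-ps6, Rpl37a, Rps29, Rpl14, Rps10, Rpl9, Rps14, Rpl23a and Rps4l. Both shares are below the background of the array. Against control array 2 alone, 11 members lay above and 20 below, where 28.4% and 44.3% of all genes did so. The median difference without control array 1 was -0.02 (all genes -0.11), and 22 of 88 members had the other sign.

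**Figure D2:**
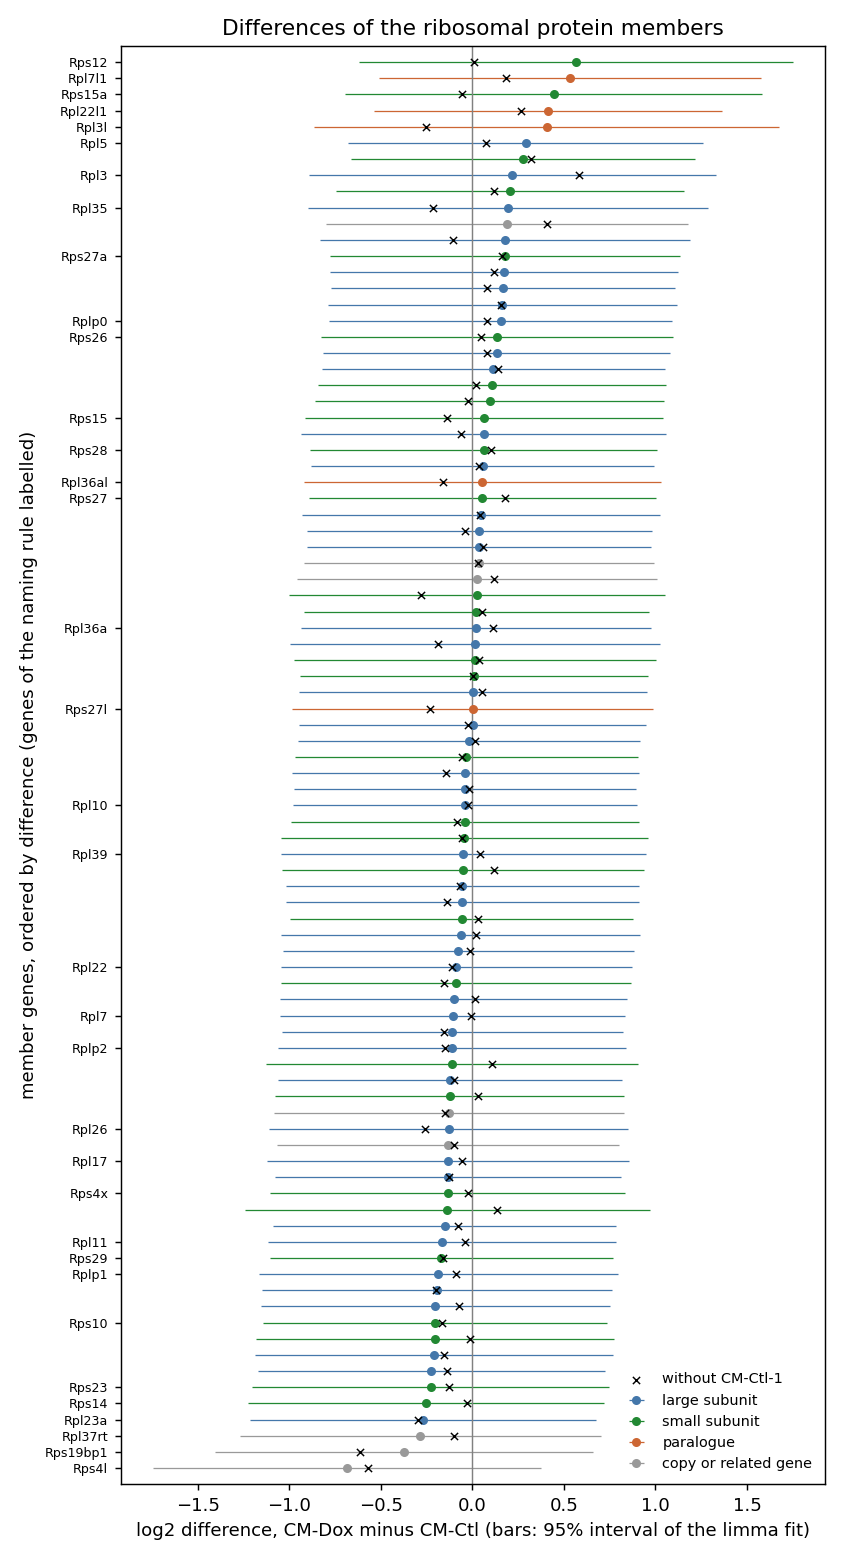
Log2 difference, doxycycline minus control (x axis), of each of the 88 ribosomal protein genes (y axis, ordered by the difference, with the genes of the naming rule labelled), with 95% intervals from limma and crosses for the difference without control array 1. Every interval includes 0; the values run from -0.68 for Rps4l to 0.57 for Rps12.

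The highest difference belonged to Rps12, a protein of the beak of the small subunit. Its level was 5.95 and 7.06 for PBS arrays 1 and 2, against 7.17 and 6.97 for doxycycline arrays 1 and 2. The difference of 0.57 ± 0.50 (SE, n = 2 per group; 1.48-fold; limma adjusted p = 0.910) rests on control array 1, which alone was low. Without that array it was 0.01. A second Rps12 probe read 6.52 and 6.16 against 6.55 and 5.67, a difference of -0.23, so the probes of this gene disagree in sign. Rps15a, another small subunit protein, had the same shape. Its level was 4.68 and 5.68 with PBS against 5.58 and 5.66 with doxycycline, which is a difference of 0.44 ± 0.48 (adjusted p = 0.937). Only control array 1 was low here as well. The difference was -0.06 without control array 1, and a second probe gave -0.17. Rpl35, at the rim of the exit tunnel, also was low on control array 1 alone, with 6.63 and 7.45 against 7.40 and 7.08, a difference of 0.20 that became -0.21 without control array 1.

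Rps6, the small subunit protein that S6 kinases phosphorylate, had a difference above 0.2 with or without control array 1 (it was named after its values were seen). Its level was 5.89 and 5.80 with PBS against 6.23 and 6.01 with doxycycline. Both doxycycline arrays were above both controls, by 0.28 ± 0.39 (1.21-fold, adjusted p = 0.960), and by 0.32 without control array 1. This holds for its brightest probe; the others gave 0.09, with overlapping groups, and -0.19, with both doxycycline arrays below both controls. Rpl13a, chosen in the same way, differed by 0.17, or 0.08 without control array 1, while its other probes gave -0.40 and -0.15. On those other probes control array 1 alone was high, and control array 2, at 1.75 and 1.56, lay between the doxycycline values. Rpl28, with 1 probe, differed by 0.12, or 0.14 without that array.

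Among the subunit proteins with the lowest differences were Rpl23a, which lies at the exit tunnel where signal recognition particle docks, Rps14, whose loss underlies the anaemia of the 5q deletion in humans, and Rps23, a protein of the decoding centre. Rpl23a read 5.99 and 6.05 with PBS against 5.89 and 5.62 with doxycycline, which is a difference of -0.27 ± 0.40 (95% interval -1.22 to 0.68, adjusted p = 0.961) and of -0.30 without control array 1. Its doxycycline arrays both lay below the controls, but a second probe, at 3.08 and 4.65 against 4.61 and 4.26, gave 0.57. That second probe was low on control array 1 alone, and both of its doxycycline values lay below control array 2. Rps14 read 8.78 and 8.33 against 8.33 and 8.28, a difference of -0.25 ± 0.41 (adjusted p = 0.971). Here control array 1 alone was high, and without it the difference was -0.03. Rps23 differed by -0.23, with overlapping groups at 6.60 and 6.40 against 6.48 and 6.07.

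The mRNAs of the stalk, the flexible arm of the large subunit that recruits elongation factors, showed no common direction. Rplp0, its base, read 7.40 and 7.55 with PBS against 7.68 and 7.58 with doxycycline, which is a difference of 0.15 ± 0.39 (95% interval -0.78 to 1.09, adjusted p = 0.978). Both doxycycline arrays were above both controls, by a margin smaller than the standard error, and the difference was 0.08 without control array 1. This holds for its brightest probe, while the others gave 0.09 and 0.004, with overlapping groups. Rplp1 and Rplp2, the acidic proteins that pair on the arm, differed by -0.19 ± 0.41 and -0.11 ± 0.40, with overlapping groups. The proteins that enter the ribosome together with 5S rRNA, and that outside the ribosome bind Mdm2, differed in sign on their brightest probes. Rpl5 read 3.97 and 4.40 against 4.53 and 4.42, a difference of 0.29 ± 0.41 (adjusted p = 0.960), or 0.08 without control array 1. Rpl11 read 6.73 and 6.48 against 6.51 and 6.37, a difference of -0.17 ± 0.40, or -0.04 without control array 1. The remaining Rpl11 probes gave 0.23 and 0.55, the sign of Rpl5, but both were lowest on control array 1, at 5.22 and 3.90. Their doxycycline means, 5.71 and 5.05, lay just below control array 2, at 5.74 and 5.10.

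Proteins grouped by site or by disease stayed near the median of the family. The 8 proteins of the exit tunnel and its rim had a median difference of -0.08, with 0 apart above and 1, Rpl23a, apart below. Rpl17 and Rpl26 of that site differed by -0.13 each on their brightest probes. Of the other Rpl17 probes, 5 gave values between 0.05 and 0.57, and the dimmest gave -0.11. The other Rpl26 probes gave -0.06 and 0.13. The 6 proteins along the mRNA path and at the decoding site had a median of 0.04, Rps26 differing by 0.14, Rps15 by 0.06 and Rps28 by 0.06. The 12 genes mutated in Diamond-Blackfan anaemia, a human failure of red cell production, had a median of -0.06, with 1 apart above (Rpl5) and 2 apart below (Rps10 and Rps29), where all genes had 14.5% and 20.8%. Rps10 read 7.59 and 7.52 with PBS against 7.45 and 7.26 with doxycycline, and Rps29 read 7.84 and 7.82 against 7.76 and 7.56. These are differences of -0.20 and -0.17, each below its standard error.

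Of the 5 paralogues, 3 had a difference above 0.4, and 1 of these, that of Rpl3l, had the other sign without control array 1. Rpl3l, the striated muscle form of Rpl3, read 3.47 and 4.79 with PBS against 4.62 and 4.45 with doxycycline. The difference of 0.41 ± 0.53 (95% interval -0.86 to 1.68, 1.33-fold, adjusted p = 0.957) turned to -0.25 without control array 1. At 1.32, the gap of Rpl3l between the control arrays was the largest of the 88 members. Rpl3 itself, which lines the way to the peptidyl transferase centre, had the opposite gap between the controls, with 5.47 and 4.74 against 5.61 and 5.03 with doxycycline. Its difference was 0.22 ± 0.46 (adjusted p = 0.976), and 0.58 without control array 1. Each of these genes has 1 probe that passed. The gap of Rpl3l to Rpl3, centred on its mean over the arrays, was -1.12 and 0.93 with PBS against -0.11 and 0.30 with doxycycline, so the controls enclose the doxycycline values. The array on which Rpl3l was low is the one on which fibroblast, endothelial, macrophage and red cell markers summed highest, and 13 of 15 cardiomyocyte markers were below their value on the second control, with a median gap of 0.89. The part of other cells and of cardiomyocyte content in this gap was not tested.

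Rpl22l1, which is known in mouse to be repressed by its parent Rpl22, kept its groups apart, with a difference above 0.2 with or without control array 1. Its level was 4.14 and 4.44 with PBS against 4.75 and 4.65 with doxycycline. Both doxycycline arrays were above both controls, by 0.41 ± 0.40 (95% interval -0.54 to 1.36, 1.33-fold, adjusted p = 0.928), and by 0.26 without control array 1. Rpl22 read 5.94 and 5.98 against 6.05 and 5.69, a difference of -0.09 with overlapping groups. The gap of Rpl22l1 to Rpl22, centred in the same way, was -0.38 and -0.12 with PBS against 0.12 and 0.38 with doxycycline. It was 0.50 larger with doxycycline, with no overlap between the groups. Rpl7l1, the dimmest member, is related to Rpl7 and to the yeast assembly factor Rlp7. It read -2.48 and -1.78 with PBS against -1.70 and -1.50 with doxycycline. The groups did not overlap, and the difference was 0.53 ± 0.44 (1.45-fold, adjusted p = 0.900), or 0.18 without control array 1. Rpl7 differed by -0.11. Rpl36al, the autosomal copy of X-linked Rpl36a, and Rps27l, a known p53 target, differed by 0.05 and 0.00, and by -0.16 and -0.23 without control array 1. Their parents Rpl36a and Rps27 differed by 0.02 and 0.05, and groups overlapped for all of these genes.

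**Figure D3:**
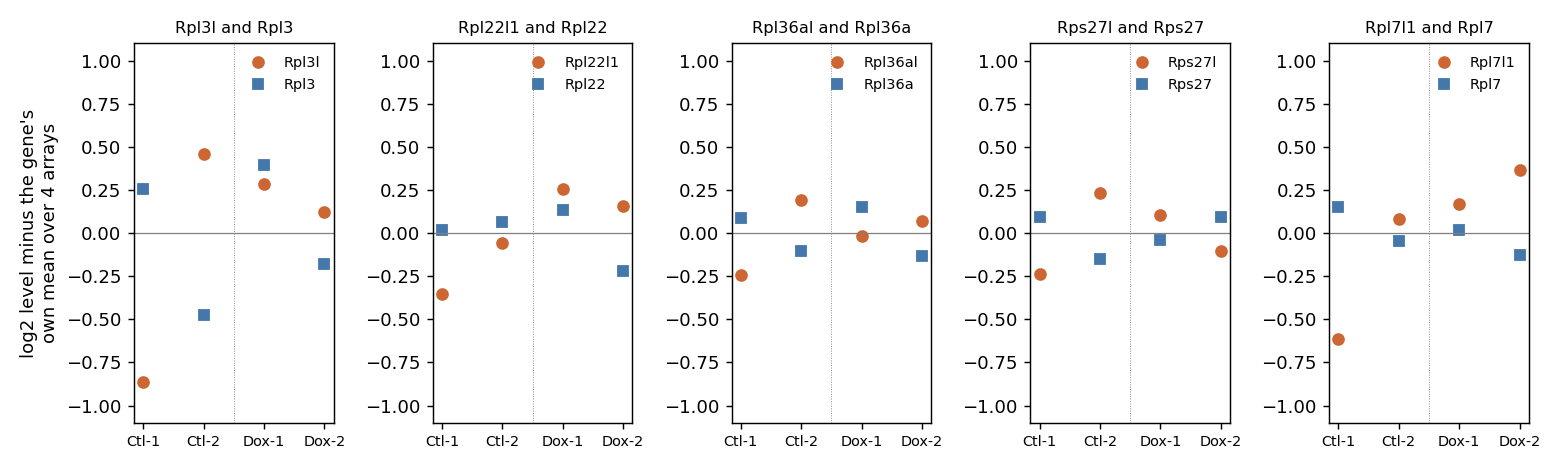
Log2 levels of each paralogue and its parent, each minus its own mean over the arrays (y axis), on the 4 arrays (x axis, controls then doxycycline). Control array 1 is the lower of the controls for Rpl3l and the upper one for Rpl3, while Rpl22l1 is above both of its control values on both doxycycline arrays.

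Rps4l, a mouse copy of X-linked Rps4x, had the lowest difference of the family. Its level was 1.37 and 1.15 with PBS against 0.95 and 0.20 with doxycycline. Both doxycycline arrays were below both controls, with a difference of -0.68 ± 0.44 (95% interval -1.74 to 0.38, 0.622-fold, adjusted p = 0.878), and of -0.57 without control array 1. The parent Rps4x differed by -0.14. Rps19bp1, a binding partner of Rps19 and of the deacetylase Sirt1 rather than a subunit protein, read 1.003 and 1.48 against 1.12 and 0.62, a difference of -0.37 ± 0.43, or -0.61 without control array 1. Rpl37rt, a retrotransposed copy of Rpl37, differed by -0.28, or -0.10 without control array 1. Probes of such copies may also take up the parent's mRNA, so their values and those of pseudogene symbols are uncertain. The parents Rpl39 and Rpl10 of the undetected retrogenes differed by -0.05 and -0.04. Of the proteins of the cytosolic ribosome whose symbols do not begin in this way, Rpsa differed by -0.17, Fau by -0.16 and Rack1 by 0.15.

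A common gap of the family, shared with other genes of translation, lay within the doxycycline group. Doxycycline array 1 read above doxycycline array 2 in 79 of 88 members (89.8%), against 49.7% of all genes. The median gap was 0.26 for the members and 0.00 for all genes. Initiation factors were above on doxycycline array 1 in 19 of 20 (median 0.31), elongation factors and other TOP mRNAs in 14 of 17 (0.18) and mitochondrial ribosomal proteins in 55 of 77 (0.13). Exceptions among the members were Rpl7l1, Rps15a, Rpl36al, Rps27, Rpl34-ps1, Rps3, Rpl4, Rpl7a and Rps21, the last by -0.74. The 12 Diamond-Blackfan genes were above on doxycycline array 1 in 12 of 12. The gap kept its direction when arrays were scaled in other ways: 73 members with quantile normalization (median 0.14), 86 with scaling to the median (0.49) and 82 with normexp background correction (0.34). In all genes the shares under these settings were 46.1%, 67.8% and 45.5%. Myc, at 1.77 and -0.49, and the 75th percentile of the signal, at 248 and 193, were also higher on doxycycline array 1, and their part in this gap was not tested.

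Between the control arrays no such direction was seen with scaling to the 75th percentile. Control array 2 was above control array 1 in 45 of 88 members, against 53.4% of all genes, with a median gap of 0.01. That count depends on the scaling, with 14 members under quantile normalization (median gap -0.35, all genes 0.08) and 83 under scaling to the median (0.44, all genes 0.51). Normexp background correction gave 63 members (0.11, all genes -0.04). Single members did differ strongly, however, Rpl3l by 1.32, Rps12 by 1.11, Rps15a by 1.004 and Rpl35 by 0.82 upward, and Rpl3 by -0.73 downward. With scaling to the 75th percentile, the median size of the gap was 0.17 between controls and 0.27 between doxycycline arrays, where all genes had 0.68 and 0.32. The family's median level was 6.07 and 6.32 with PBS against 6.35 and 6.02 with doxycycline, and its share of the summed signal of tested genes was 8.80% and 7.04% against 8.03% and 7.01%. The groups overlap in both measures.

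**Figure D4:**
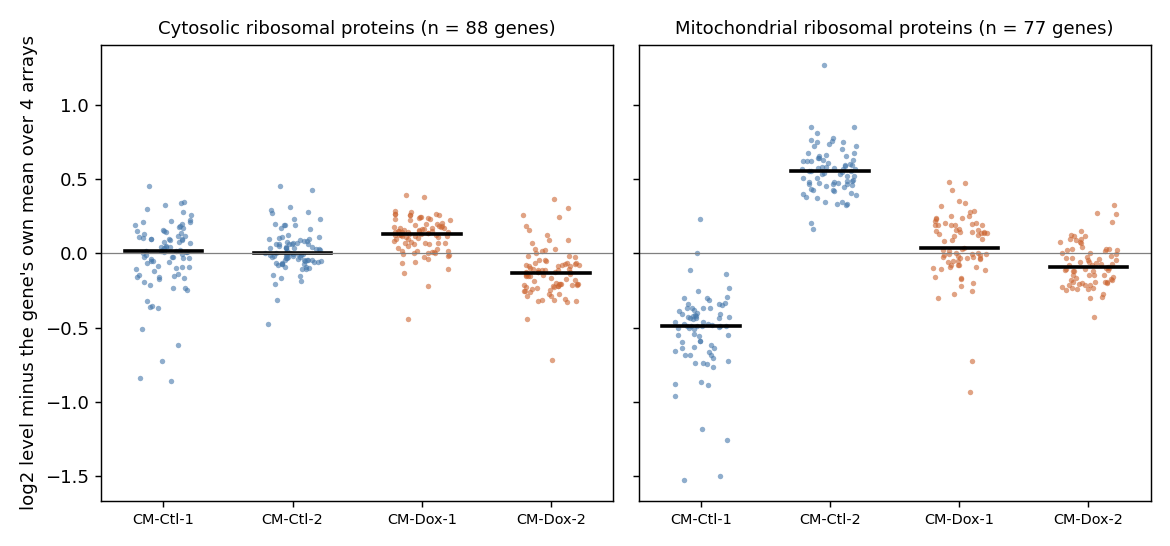
Offset of each gene from its own mean over the 4 arrays (y axis, log2), by array (x axis), with the median marked, for the 88 cytosolic and the 77 mitochondrial ribosomal protein genes. The cytosolic medians are 0.01 and 0.00 with PBS against 0.13 and -0.13 with doxycycline.

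Mitochondrial ribosomal proteins, encoded in the nucleus for the ribosome of the mitochondrion, gave a different picture on control array 1. Their 77 genes had the same median difference, -0.04, as the cytosolic family. Control array 2, however, was above control array 1 in 77 of 77, by a median of 1.05, so without control array 1 their median difference was -0.54, and both doxycycline arrays lay below control array 2 for 73 of 77, where 44.3% of all genes did so. For the cytosolic family the medians with and without control array 1 were -0.04 and -0.02. The difference between these sets was not tested.

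Several probes per gene gave a check within the family. Of the 88 members, 51 had several probes that passed, and for 25 of these the probes differed in sign. The median range of the difference among probes of a gene was 0.16. In 11 members it was 0.5 or more. A gap of at least 1 between the control arrays was seen in 8 probes of 8 genes, among them Rpl3l, Rps12, Rps15a, Rpl11, Rpl23a and Rps27a, always with control array 1 lower. Of the 7 of these genes with several probes, 6 had another probe whose control arrays lay within 0.3 of each other. Rps27a, a ubiquitin fusion, differed by 0.18 on its brightest probe and by 0.81 on a second one that read 4.05 and 5.55 with PBS against 5.63 and 5.60 with doxycycline. Probes of 1 mRNA thus gave different values on control array 1.

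The family shares a start-site feature that the symbols do not use. RefSeq promoter windows (build GRCm38.p6) were found for 65 of the 88 members, a gene with several starts being counted if any of its windows held the feature. A pyrimidine tract, here a C followed by at least 4 bases that are C or T, on the gene's strand and within 25 bases of the annotated start, was present in 53 of 65 (81.5%), against 56.8% of 27025 genes in the table. The base at the annotated start was itself a C followed by at least 4 such bases in 14 of 65 (21.5%) against 3.01%. The sequence CACGTG, the E-box that Myc and Max bind, which reads the same on both strands, was present in the window, from 250 bases before the start to 50 after, in 6 of 65 (9.23%) against 8.09%. TATAAA, sought on the gene's strand from 40 to 11 bases before the start, was present in 1 of 65 (1.54%) against 2.51%. The windows below, 50 bases around the annotated start of members described above, show in capitals the tract nearest the start (a window can hold others, as that of Rps15a does), first for 2 genes whose difference rested on control array 1, then for 2 whose groups did not overlap, and last for Rpl3l, whose tract is short.
Rps12: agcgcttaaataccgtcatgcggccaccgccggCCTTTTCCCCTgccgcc
Rps15a: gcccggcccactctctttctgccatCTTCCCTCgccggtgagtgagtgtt
Rpl22l1: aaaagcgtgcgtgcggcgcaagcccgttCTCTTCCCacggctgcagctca
Rps6: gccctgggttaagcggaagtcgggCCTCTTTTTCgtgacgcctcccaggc
Rpl3l: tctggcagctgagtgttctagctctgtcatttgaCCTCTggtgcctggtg
These lie at chr10:23787185-23787234 (minus strand) for Rps12, chr7:118116123-118116172 (minus) for Rps15a, chr3:28805483-28805532 (plus) for Rpl22l1, chr4:86857343-86857392 (minus) for Rps6 and chr17:24727801-24727850 (plus) for the first window listed for Rpl3l. The tract in capitals is 11 bases long in Rps12, 8 in Rps15a and Rpl22l1, 10 in Rps6 and 5 in Rpl3l. Members with the tract and without it are both among the highest differences, since Rpl7l1 has a window without one. A match is a run of letters and does not show that the mRNA starts there.

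Other genes of the translation machinery lay mostly above 0, none past the threshold. The 17 elongation factors and other mRNAs known to carry a TOP motif had a median difference of 0.29 (all genes -0.06), with 15 above 0 (5666 of all 12542 genes were) and 6 apart above (all genes 14.5%), but a median of 0.07 (all genes -0.11) without control array 1. Eef2, the factor that moves the ribosome along the mRNA, read 5.84 and 6.26 with PBS against 6.57 and 6.59 with doxycycline, which is a difference of 0.53 ± 0.41 (adjusted p = 0.896). Its groups do not overlap. Eef1a2, the muscle form of the factor that brings transfer RNA, read 3.30 and 4.73 against 4.79 and 4.83, a difference of 0.80 ± 0.55 that was 0.09 without control array 1. Of 20 initiation factors measured, 19 were above 0 and 7 apart above (all genes 14.5%). Their median was 0.40, which also was 0.07 without control array 1. The exception was Eif4e, at -0.43 with overlapping groups, or -0.91 without control array 1. Eif1a, which helps scan for the start codon, had the highest, 1.09 ± 0.48 (adjusted p = 0.750).

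Regulators of ribosomal protein mRNA translation were mixed. The 15 regulators of mTORC1 and of TOP mRNAs measured had a median difference of 0.18, with 11 above 0, 5 apart above and 1 apart below (all genes 14.5% and 20.8%). Ddit4, an inhibitor of mTORC1, read 3.71 and 4.30 with PBS against 5.10 and 6.03 with doxycycline. Both doxycycline arrays were above both controls, by 1.56 ± 0.49 (2.94-fold, adjusted p = 0.523), and by 1.26 without control array 1. Eif4ebp1, the translation repressor that mTORC1 inactivates, differed by 0.81, or 0.26 without control array 1. Eef2k, the kinase that inhibits Eef2, differed by 1.69, and this rests on doxycycline array 1, at 1.76 where the other arrays read between -1.72 and -1.03. The 8 kinases of the S6 kinase families measured had a median of -0.01, with 2 apart above and 2 apart below (all genes 14.5% and 20.8%). None of the genes on these lists passed in limma after Benjamini-Hochberg adjustment.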

How the data were processed

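RNA from 2 control and 2 doxycycline samples was read on 4 one-colour arrays, grouped by title. Per the file headers, the authors scanned Cy3 and used Agilent Feature Extraction 10.7.1.1 to obtain a linear intensity per spot. In the deposited files this processed intensity has the background subtracted and no scaling from array to array. The other columns used here are flags, per the file headers, for spots that are clearly above background, saturated or outliers. Saturated spots numbered 0. All arrays lie on 1 slide, with controls in the first positions, so position and group cannot be told apart.

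Accessions were named through a RefSeq table of assembly GRCm38.p6, which gave 27508 of 39429 probes a gene. Intensities were log2-transformed, the 75th percentile of the array was subtracted, and spots flagged as outliers were left out. Probes had to clear the background flag on 2 arrays or more, and the brightest probe stood for its gene. The small number of arrays limits the precision. Two-sided tests used limma 3.58.1 in R 4.3.3 (lmFit and eBayes, 4.69 prior and 2 residual degrees of freedom), adjusted by Benjamini-Hochberg over 12542 genes at a threshold of 0.05. The fit was run on simulated arrays with known changes and the same spread for every gene. That checks the code and does not show how the fit behaves on these arrays. Figures were drawn with matplotlib 3.10.9.

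The members, the lists and the tests were chosen with earlier results of these data known. Named genes are the paralogues, their parents, stalk, 5S particle, related and outside proteins, the 6 highest and 6 lowest members, the 4 members with the largest gap between control arrays, and up to 4 genes of each other list with the smallest p, pseudogene and predicted symbols being passed over. Some genes are not reported here. Other settings tried were normexp (offset 50) on the median spot signal, quantile and median scaling, each array left out, a block on the replicate number, a robust variance or one with a trend, probes of a gene averaged, and no filter or one on all 4 arrays. Subunit proteins alone and every probe as its own point were added after seeing the data. The replicate numbers in the titles are not said to mark a shared animal or day. Deviations of same-numbered arrays correlated at -0.085 over 12542 genes, from 2 pairs, so the numbers were not taken to pair the samples.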

Additional observations from a re-analysis of the deposited data

How the results depend on the processing

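Members that passed in limma numbered 0 of 88 under every alternative run. Over all genes, 0 passed as reported, 128 with scaling to the median, 295 with the replicate number as a block (a pairing the labels do not state), and 0 to 171 with 1 array left out, 171 without doxycycline array 2 and 32 without doxycycline array 1; the block changed no member's call. The prior degrees of freedom of limma, 4.69 as reported, were infinite with the block and 1013 without either doxycycline array. Those fits thus gave every gene nearly the same variance, whatever its own spread. Their counts of passing genes therefore cannot show which genes differ. The members' median difference of -0.04 became 0.31 with scaling to the median, where all genes had 0.29, and ranged from -0.14 to 0.12 with 1 array left out. Less the median of all genes it was 0.03 as reported, 0.24 with normexp and 0.27 with no filter on dim probes. The number of members with both doxycycline arrays above the controls, 7 as reported, was 16 with normexp, 16 with scaling to the median and 8 to 49 with 1 array left out. These are 18.2%, 18.2% and 9.09% to 55.7% of members, against 13.9% and 24.7% of all genes in the first 2 settings. The 9.09% was without doxycycline array 1 (all genes 21.6%) and the 55.7% without doxycycline array 2 (all genes 27.3%). The number below, 10 as reported, was 2, 0 and 13 to 56 in the same order. These are 2.27%, 0% and 14.8% to 63.6% of members, against 29.7% and 8.88% of all genes in the first 2 settings. The 14.8% was without doxycycline array 2 (all genes 35.6%) and the 63.6% without doxycycline array 1 (all genes 29.9%). The sign of the family's small median difference thus depends on the scaling. Above 0 lay 42 of 88 members as reported (5666 of all 12542 genes), 77 with normexp, 22 with quantile normalization and 86 with scaling to the median. In that order the members' median was -0.04, 0.14, -0.08 and 0.31, and that of all genes -0.06, -0.10, -0.04 and 0.29. Scaling to the median thus moved the members and all genes upward together. Without control array 2, 3 members had an unadjusted p under 0.05, with a smallest adjusted p of 0.160, for Rps12. The cause of these shifts was not tested. With 2 arrays per group, and variances drawn by limma toward that of all genes, differences under about 0.96 on the log2 scale were not detectable for a typical member.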

Other observations

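Agreement between probes of the same gene differed by array. The spread (SD) of a probe's offset from the mean offset of its gene was 0.289 on control array 1 for the ribosomal proteins, and 0.106, 0.176 and 0.151 on control array 2 and doxycycline arrays 1 and 2. For all 2969 genes with several probes it was 0.400, 0.258, 0.336 and 0.219.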
